A study of Mus musculus with 12 samples.

Results

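Proteasome genes were followed in sorted spinal cord microglia of mice with chronic-relapsing experimental autoimmune encephalomyelitis (crEAE) and of control mice. The members are the protein-coding genes whose GENCODE M21 symbol is Psm followed by a letter from a to g and a number. The rule found 50 of the 48526 gene IDs in the counts, of which 21760 are protein-coding. They comprise 5 immune subunits (Psmb8, Psmb9, Psmb10, Psme1 and Psme2), 43 other subunits, activators and chaperones, and 2 genes kept apart. Psmc3ip encodes a recombination protein that only shares the prefix, and Psme2b is a copy of Psme2. Of the 50, 46 passed the filter on low counts: all 5 immune subunits, 40 of the 43 others, and Psme2b. Psmc3ip, Psmg4, Psma8 and Psmb11 did not pass and were not tested.

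All 12 libraries came from Biozzi ABH mice, with 3 control mice and 3 crEAE mice each in the acute, remission and chronic phase. Cells carrying CD11b and an intermediate amount of CD45, and lacking Ly-6C, were sorted from the spinal cord. The age and sex of the mice, the immunising agent and the days of sampling are not given in the sources used here. Replicate numbers are in record order and pair no mice.

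The proteasome is the barrel-shaped protease that degrades proteins tagged with ubiquitin. Its 20S core is a stack of rings: the outer ones are built from alpha subunits (Psma genes) and the inner ones from beta subunits (Psmb genes), of which Psmb5, Psmb6 and Psmb7 carry the active sites. A 19S cap of ATPases (Psmc genes) and other subunits (Psmd genes) recognises, unfolds and threads substrates into the core. Interferon gamma induces Psmb8, Psmb9 and Psmb10, which replace Psmb5, Psmb6 and Psmb7 in newly assembled cores and form the immunoproteasome, and Psme1 and Psme2, which form the PA28 ring that opens the core. Immunoproteasomes produce many of the peptides that MHC class I molecules present, and activated microglia are among the cells known to express them.

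Promoters of 42 member genes were found in RefSeq (build GRCm38.p6), each as the 300 bases from 250 before the start to 50 after it. Letters of 2 elements known from interferon-induced genes were searched on both strands. GAAANNGAAA, a form of the interferon-stimulated response element, was in 5 of the 42 genes (Psmb3, Psmd4, Psmd9, Psme1 and Psmg4) and in 3.44% of all 32851 promoters. TTCNNNGAA, a form of the gamma-activated site, was in 3 (Psmb8, Psmd2 and Psmg1) and in 8.3% of all promoters. TGACNNNGC, a form of the antioxidant response element that Nfe2l1 and its relatives bind, was in 6 (Psmb5, Psmb6, Psmc6, Psmd12, Psmd9 and Psme4) and in 12.4% of all promoters. Among the 5 immune subunits, 1 held the first element, 1 the second and 0 the third. The promoters of 3 immune subunits are shown because these genes carry most of the results; capitals mark the gamma-activated site of Psmb8 and the reverse complement of the response element of Psme1, and Psmb9 holds none of the 3.
Psmb8 (chr17:34197945-34198244, plus strand): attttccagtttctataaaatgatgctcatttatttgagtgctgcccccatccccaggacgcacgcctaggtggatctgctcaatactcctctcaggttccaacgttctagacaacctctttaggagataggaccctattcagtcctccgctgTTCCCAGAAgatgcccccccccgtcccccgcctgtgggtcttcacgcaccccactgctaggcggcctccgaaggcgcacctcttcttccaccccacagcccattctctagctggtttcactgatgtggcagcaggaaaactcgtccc
Psmb9 (chr17:34187281-34187580, minus strand): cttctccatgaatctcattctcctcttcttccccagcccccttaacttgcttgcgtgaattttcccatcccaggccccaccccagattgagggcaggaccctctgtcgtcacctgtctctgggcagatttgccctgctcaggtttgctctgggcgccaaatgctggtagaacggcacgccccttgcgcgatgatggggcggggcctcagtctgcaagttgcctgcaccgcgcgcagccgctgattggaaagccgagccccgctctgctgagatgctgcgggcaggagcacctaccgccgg
Psme1 (chr14:55578244-55578543, plus strand): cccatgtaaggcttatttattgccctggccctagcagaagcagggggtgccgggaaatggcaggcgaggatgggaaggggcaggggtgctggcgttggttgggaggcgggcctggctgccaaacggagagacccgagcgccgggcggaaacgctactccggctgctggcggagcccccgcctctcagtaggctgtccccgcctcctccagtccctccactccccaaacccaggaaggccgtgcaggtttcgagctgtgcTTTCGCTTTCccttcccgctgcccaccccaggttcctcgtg
On GRCm38, Psmb8 (ENSMUSG00000024338) spans 34197721 to 34201454 and Psmb9 (ENSMUSG00000096727) 34181987 to 34187764 on chromosome 17, in the MHC region. Psme1 (ENSMUSG00000022216) spans 55578123 to 55581529 and Psme2 (ENSMUSG00000079197) 55587441 to 55591113 on chromosome 14, and Psmb10 (ENSMUSG00000031897) 105935735 to 105938444 on chromosome 8. These are GENCODE gene ranges, whose starts can differ from the RefSeq starts used for the promoters. Exon bases of Psmb8 overlap the gene Gm20496 (14.7% of them) and those of Psmb9 overlap Tap1 (5.79%). The kit did not keep the strand, so reads from shared bases cannot be told apart. In all, 15 of the 50 members share exon bases with another gene, and 6 share more than 10% of theirs.

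Libraries held 3992885 to 5712376 counts, but 6 features and the mitochondrially encoded genes took most of them. Outside these, 1266782 to 2496096 counts remained, and 2369 to 5126 counts per library fell on the 50 members. Levels are CPM, counts scaled to the library size after TMM normalization, as mean ± SD over 3 mice. A gene is called changed at an adjusted p under 0.05 in edgeR's quasi-likelihood test over 12545 genes. The 10 markers of resting microglia summed to 9323 to 10420 CPM in control mice, 2325 to 3588 at the acute phase, 7589 to 7824 in remission and 7238 to 7458 at the chronic phase. The 15 monocyte markers summed to 34.3 to 93.0 CPM in control mice, 2276 to 3191 at the acute phase, 138 to 166 in remission and 145 to 189 at the chronic phase. Ly6c2, Chil3 and S100a4 were at 0 counts in every control library, and none of the monocyte markers was at 0 in acute libraries. The 10 neutrophil markers summed to 110 to 366 CPM in acute libraries and at most 39.1 in any other, and 10 T and NK cell markers to 82.7 to 122 CPM in acute libraries and at most 3.88 in any other. The 8 dendritic cell markers summed to 21.1 to 28.6 CPM in control mice, 67.0 to 87.4 at the acute phase, 100 to 184 in remission and 36.5 to 121 at the chronic phase. The 5 B cell markers stayed between 0.889 and 5.58 CPM in all libraries. In bulk samples, fewer cells of a type and less RNA per cell cannot be told apart, and monocytes, lymphocytes and neutrophils also express proteasome genes.

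Of the immune subunits, 4 had their highest mean in acute mice, and Psmb9 had like means in acute and chronic mice. Psmb8, the immune form of the chymotrypsin-like subunit, had 12.2, 16.6 and 12.3 CPM in control mice, 66.7, 78.6 and 56.3 at the acute phase, 28.2, 25.1 and 24.4 in remission and 28.8, 35.5 and 54.3 at the chronic phase. Every acute library was above every other, and control libraries were below all others. Psmb9, the immune form of the caspase-like subunit, had 12.2, 13.3 and 15.1 CPM in control mice, 41.2, 49.0 and 50.1 at the acute phase, 23.6, 35.6 and 25.2 in remission and 36.3, 51.3 and 55.6 at the chronic phase. Acute and chronic libraries overlapped each other. All remission libraries lay above the control libraries and below the acute and chronic ones. Psmb10, the immune form of the trypsin-like subunit, had 11.1, 17.2 and 20.9 CPM in control mice, 48.2, 53.8 and 37.9 at the acute phase, 11.3, 17.0 and 11.7 in remission and 12.3, 25.2 and 32.9 at the chronic phase. Its remission libraries lay within the control range, and its chronic libraries spread from the control level to well above it.

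The PA28 genes followed a like course. Psme1, the alpha subunit of PA28, had 16.5, 20.3 and 25.0 CPM in control mice, 70.6, 73.0 and 72.6 at the acute phase, 29.7, 27.9 and 23.4 in remission and 42.2, 43.6 and 61.2 at the chronic phase. Its remission and control libraries overlapped, and its chronic libraries lay between these and the acute ones. Psme2, the beta subunit, had 11.4, 16.8 and 20.9 CPM in control mice, 34.2, 33.3 and 32.3 at the acute phase, 17.7, 13.6 and 13.8 in remission and 24.3, 24.8 and 41.6 at the chronic phase. A single chronic library was above all acute ones, and remission libraries lay within the control range. Psme2b, the copy of Psme2, had 9.39 to 14.5 CPM in control mice, 13 to 17.1 at the acute phase, 10.6 to 15.3 in remission and 11.5 to 14.8 at the chronic phase, and was called in none of the 6 comparisons.

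**Figure D1:**
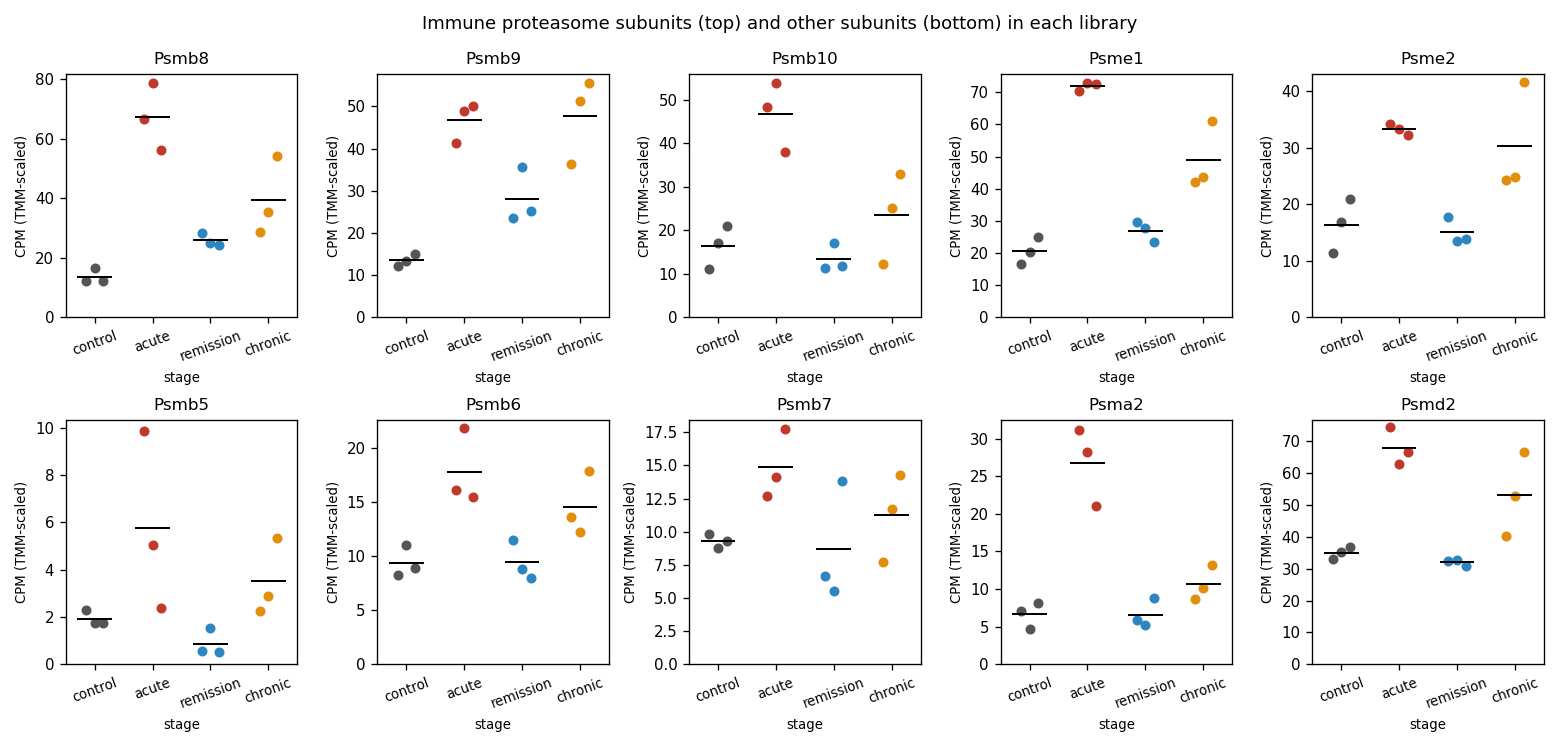
Level of 10 proteasome genes in each of the 12 libraries (TMM-scaled CPM, linear axes from 0); points are mice and lines are means of 3 mice, by stage. The immune subunits are in the upper row, where acute Psmb8 libraries (56.3 to 78.6 CPM) lie above all others, and the lower row holds Psmb5, Psmb6, Psmb7, Psma2 and Psmd2, of which Psmb5 stays under 10 CPM.

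The constitutive catalytic subunits each had their highest mean in acute mice and the next in chronic mice. Psmb5, the chymotrypsin-like subunit, had 2.28, 1.75 and 1.73 CPM in control mice, 9.86, 5.06 and 2.37 at the acute phase, 0.554, 1.53 and 0.531 in remission and 2.27, 2.88 and 5.36 at the chronic phase. These values rest on 2 to 38 counts per library, and the acute libraries differed among themselves by more than those of any other stage. Psmb6, the caspase-like subunit, had 8.25, 11.0 and 8.85 CPM in control mice, 16.1, 21.8 and 15.4 at the acute phase, 11.4, 8.80 and 7.97 in remission and 13.6, 12.2 and 17.9 at the chronic phase. Acute and chronic libraries lay above all control libraries, and remission overlapped control. Psmb7, the trypsin-like subunit, had 9.81, 8.76 and 9.28 CPM in control mice, 12.7, 14.1 and 17.8 at the acute phase, 6.64, 5.55 and 13.8 in remission and 7.72, 11.7 and 14.3 at the chronic phase. A single remission library reached the acute range.

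Acute mice were set against control mice to see how proteasome genes stood at the acute phase. All 5 immune subunits were higher, and so were 26 of the 40 other members tested, while 0 were lower. Of all genes, 23.7% were called higher and 20% lower in this comparison. The median log2 fold change was 1.79 for the immune subunits and 0.74 for the other members, against 0.02 for all genes. Psmb8 averaged 67.2 ± 11.1 CPM in acute and 13.7 ± 2.53 in control mice (log2 fold change 2.29 ± 0.21 SE, adjusted p 4.74e-08). Psme1 averaged 72.1 ± 1.31 CPM in acute and 20.6 ± 4.27 in control mice (1.82 ± 0.17, adjusted p 4.64e-08), and Psmb9 46.8 ± 4.83 in acute and 13.6 ± 1.45 in control mice (1.79 ± 0.19, adjusted p 2.46e-07). Psmb10 rose by 1.53 ± 0.31 (adjusted p 0.00128) and Psme2 by 1.04 ± 0.23 (adjusted p 0.000963). Acute libraries lay above control libraries without overlap for all 5 and for 29 of the 40 others. How many of all genes lay apart in this way was not counted, so these counts have no share beside them. The 5 immune calls held under every alternative and with any library left out. The marker sums of monocytes, neutrophils, T and NK cells and dendritic cells given above were also higher in every acute library than in every control library, and that of resting microglia was lower. Of the 4 tested dendritic cell markers, 3 were called higher and 1 lower. B cell markers summed to 0.889 to 2.93 CPM in acute and 2.63 to 5.39 in control libraries. The part of these cells in the differences was not tested.

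Among the other members, median increases were larger for the 20S core than for the 19S cap. All 7 alpha-ring genes rose, and so did all 4 structural beta genes and 2 of the 3 constitutive catalytic genes, against 3 of the 6 ATPases and 7 of the 11 other 19S subunits. Psma2 had 31.1, 28.2 and 21 CPM in acute and 7.11, 4.73 and 8.20 in control mice (log2 fold change 2.01 ± 0.26 SE, adjusted p 2.26e-06), the largest of the 40. Psma5 averaged 21.7 ± 6.14 CPM in acute and 6.57 ± 0.50 in control mice (1.72 ± 0.27, adjusted p 2.41e-05), and Psma6 29.4 ± 4.38 in acute and 10.8 ± 1.85 in control mice (1.45 ± 0.21, adjusted p 1.26e-05). Psmd2, a scaffold of the 19S base, had 74.4, 62.9 and 66.7 CPM in acute and 33.1, 35.2 and 36.7 in control mice (0.96 ± 0.16, adjusted p 4.13e-05). No acute library of these 4 genes overlapped a control library. The medians were 1.21 for the alpha ring, 1.2 for the structural beta genes, 0.59 for the ATPases and 0.57 for the other 19S subunits. The other alpha-ring genes, Psma1, Psma3, Psma4 and Psma7, rose by 0.59 to 1.21, and the structural beta genes Psmb1, Psmb2, Psmb3 and Psmb4 by 0.97 to 1.33.

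Among the catalytic pair members, Psmb6 rose by 0.92 ± 0.23 on the log2 scale (adjusted p 0.00268) and Psmb5 by 1.57 ± 0.51 (adjusted p 0.0174). With library totals alone both calls ended, at 0.38 for Psmb6 (adjusted p 0.201; range over 20 alternatives 0.00176 to 0.201), while that of Psmb5 had an adjusted p of 0.0974. Psmb7, at 0.67 ± 0.29 (adjusted p 0.0689), was not called, and was called without remission replicate 3 (adjusted p 0.0334). The call of Psmb5 ended without control replicate 2 (1.49, adjusted p 0.0604), control replicate 3 (1.49, adjusted p 0.0567) or acute replicate 1 (0.94, adjusted p 0.214). Its adjusted p ran from 0.00434 to 0.214 over the 20 alternatives, and that of Psmb7 from 0.0178 to 0.757. Of the 19S ATPases, Psmc4, Psmc5 and Psmc6 rose by 0.72 to 0.85, while Psmc1, Psmc2 and Psmc3 were not called. Of the other 19S subunits, Psmd1, Psmd2, Psmd3, Psmd4 (a ubiquitin receptor), Psmd8, Psmd13 and Psmd14 (a deubiquitinating enzyme) rose by 0.55 to 1.25. Psmd6, Psmd7, Psmd11 and Psmd12 lay between 0.14 and 0.45 and were not called.

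Activators and chaperones moved less uniformly. Psme4, the nuclear activator PA200, had 125, 118 and 88.0 CPM in acute and 63.4, 74.5 and 60.2 in control mice (log2 fold change 0.74 ± 0.15 SE, adjusted p 0.000466), a call that ended with library totals alone (0.19, adjusted p 0.378; range over 20 alternatives 2.06e-05 to 0.378). Psme3, the PA28 gamma activator of the nucleus, had 36.1, 29.0 and 32.0 CPM in acute and 25.0, 21.2 and 23.1 in control mice. Its change of 0.48 ± 0.17 (adjusted p 0.022) became -0.08 when libraries were scaled by their totals alone, and the call ended without control replicate 2 (0.41, adjusted p 0.0969), control replicate 3 (0.46, adjusted p 0.0641) or acute replicate 1 (0.40, adjusted p 0.0995). Over the 20 alternatives its adjusted p ran from 0.0178 to 0.739. Psmf1, the inhibitor PI31, had 14.5, 18.9 and 14.2 CPM in acute and 16.4, 8.59 and 17.7 in control mice, which overlap (0.17 ± 0.23, adjusted p 0.59). Psmd10, 1 of 3 chaperones of the 19S base, rose by 1.44 ± 0.48 (adjusted p 0.0192) at low levels, 6.05 ± 1.98 CPM in acute and 2.21 ± 0.74 in control mice. The other base chaperones, Psmd5 and Psmd9, were at -0.49 and 0.71 and were not called, and 0 of the 3 tested chaperones of the 20S core (Psmg1, Psmg2 and Psmg3) were called. Psmg4, the fourth, had 6, 9 and 6 counts in acute and 1, 2 and 2 in control mice. Psma8, a testis form, had 1 to 13 counts in every library, and Psmb11, a thymus form, had 2 counts in 1 remission library and 0 in the other 11.

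The scaling sets how many of the other members pass. Scaled by library totals alone, the median of all genes in this comparison was -0.53 in place of 0.02. The 6 features with most counts took 62.4 to 64.1% of acute and 48.3 to 56.2% of control libraries. Then 8 of the 40 others were called higher and 1 lower, while all 5 immune subunits stayed higher. The shares of all genes called with that scaling were not counted, so these counts have no share beside them. With edgeR's quasi-likelihood test and TMM scaling, 1 of the 40 was lower at an unadjusted p under 0.05. At an adjusted p under 0.05, DESeq2 and limma-voom called 0 lower.

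**Figure D2:**
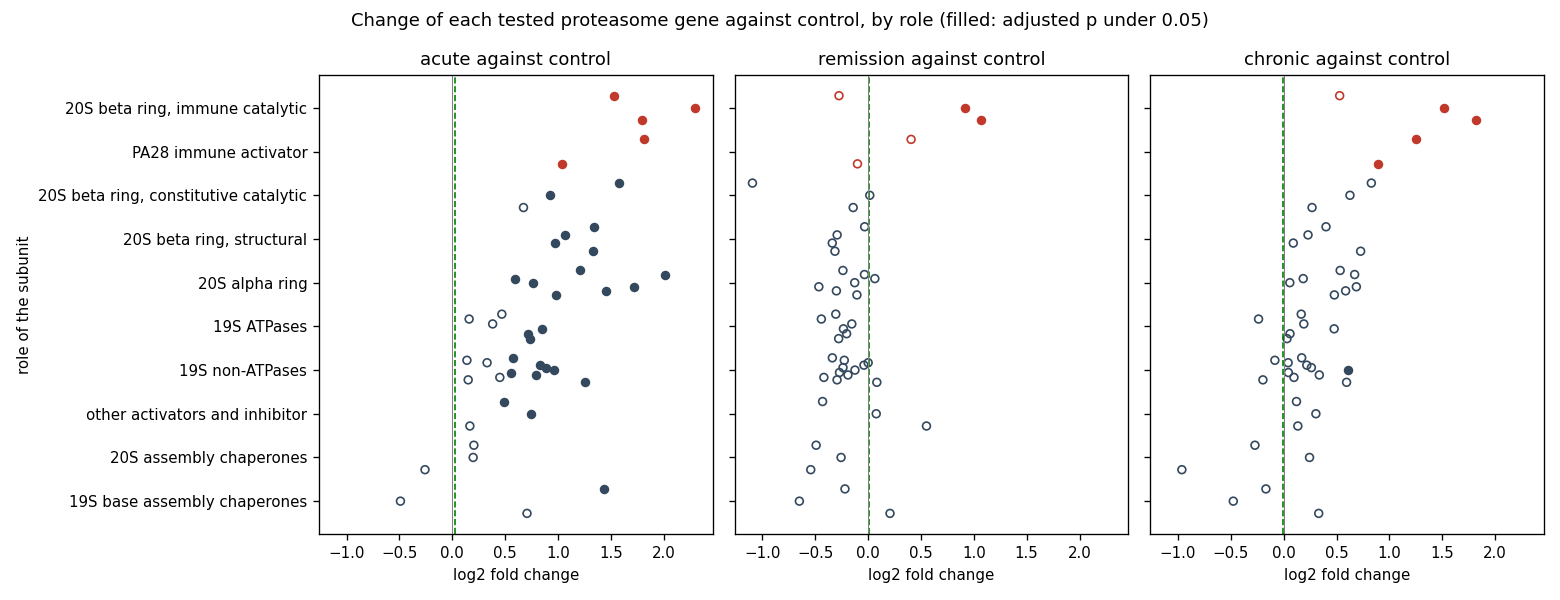
Log2 fold change of each tested proteasome gene against control (x axis) by role (y axis), in acute, remission and chronic mice; filled points passed an adjusted p under 0.05, red marks immune subunits and the dashed line is the median of all genes. In acute mice the points lie mostly right of the line (26 of 40 others called, 8 with library totals alone), in remission Psmb8 and Psmb9 are filled, and in chronic mice 4 immune subunits and Psmd2 are filled.

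In remission, 2 of the 5 immune subunits, Psmb8 and Psmb9, were higher than in control mice, and 0 of the 40 other members were called in either direction. Of all genes, 6.06% were called higher and 3.25% lower. Psmb9 averaged 28.1 ± 6.49 CPM in remission and 13.6 ± 1.45 in control mice (log2 fold change 1.06 ± 0.19 SE, adjusted p 0.000887), and Psmb8 25.9 ± 2.04 in remission and 13.7 ± 2.53 in control mice (0.92 ± 0.21, adjusted p 0.00812). The call of Psmb8 ended without control replicate 1 (0.84, adjusted p 0.052), and over its 20 alternatives the adjusted p ran from 3.27e-05 to 0.052. Psme1 was at 0.41 ± 0.18 (adjusted p 0.173), Psme2 at -0.10 ± 0.24 (adjusted p 0.867) and Psmb10 at -0.27 ± 0.33 (adjusted p 0.708). The other members lay slightly below control: 33 of the 40 had a negative change, with a median of -0.23 against 0.01 for all genes. At an unadjusted p under 0.05, edgeR's quasi-likelihood test had 1 higher and 3 lower, and the share of all genes at that threshold was not counted. At an adjusted p under 0.05, DESeq2 and limma-voom called 0 in both directions. Psmf1, at 21, 19.7 and 21.8 CPM in remission, was the 1 of the 40 whose remission libraries all lay above control libraries (0.55 ± 0.22, adjusted p 0.134). Psme3, at 17.9, 16.8 and 16.7 CPM, was among 11 whose remission libraries all lay below them (-0.43 ± 0.17, adjusted p 0.13), and was called lower when libraries were scaled by their totals alone. The share of all genes whose libraries lay apart in this way was not counted. Psme4 had 67.0, 72.1 and 70.1 CPM, within the control range. Monocyte markers summed to at least 138 CPM in remission libraries and at most 93.0 in control libraries, mostly through Lyz2. Of the 14 tested, 1 was called higher and 0 lower. Remission replicate 1 held 39.1 CPM of neutrophil markers. Dendritic cell markers summed to 100 to 184 CPM in remission and 21.1 to 28.6 in control libraries, with 2 of the 4 tested called higher. Of the 10 resting microglia markers 5 were called lower. The part of these cells was not tested.

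Set against acute mice, remission mice were lower in all 5 immune subunits and in 30 of the 40 others. Of all genes, 19.4% were called lower and 17.6% higher in this comparison. All 14 tested monocyte markers were lower too (median -5.42), as were 7 of 8 neutrophil and 6 of 6 T and NK cell markers, and all 10 resting microglia markers were higher. Their part in the result was not tested. Psmb10 averaged 13.3 ± 3.21 CPM in remission and 46.7 ± 8.06 in acute mice (log2 fold change -1.80 ± 0.32 SE, adjusted p 0.000626), the largest fall of the immune subunits, and Psmb9 28.1 ± 6.49 in remission and 46.8 ± 4.83 in acute mice (-0.73 ± 0.18, adjusted p 0.00367), the smallest. With library totals alone the call of Psmb9 ended (-0.41, adjusted p 0.109; range over 20 alternatives 0.000582 to 0.109), and 4 of the 5 immune subunits were lower. Psme1 was at -1.41 ± 0.17, Psmb8 at -1.37 ± 0.20 and Psme2 at -1.14 ± 0.23, all called. Among the others, Psma5 fell by 2.18 ± 0.28 (adjusted p 4.97e-06), Psma2 by 2.04 ± 0.26 (adjusted p 4.54e-06), Psma6 by 1.75 ± 0.22 (adjusted p 3.64e-06) and Psmd2 by 1.08 ± 0.16 (adjusted p 1.99e-05). Psmb7 fell by 0.81 ± 0.30 (adjusted p 0.0394), a call that ended when any of 7 single libraries was left out: each control library, acute replicates 2 and 3, and remission replicates 1 and 2 (adjusted p 0.0564 to 0.195), with a range of 0.00247 to 0.195 over 20 alternatives. The 10 not called were Psmc3, Psmd5, Psmd7, Psmd9, Psmd11, Psmd12, Psmg1, Psmg2, Psmg3 and Psmf1.

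In the chronic phase, 4 of the 5 immune subunits were higher than in control mice, and 1 of the 40 others, Psmd2. Of all genes, 9.57% were called higher and 5.17% lower. Psmb9 averaged 47.7 ± 10.1 CPM in chronic and 13.6 ± 1.45 in control mice (log2 fold change 1.82 ± 0.19 SE, adjusted p 1.06e-06). Psmb8 averaged 39.5 ± 13.2 CPM in chronic and 13.7 ± 2.53 in control mice (1.52 ± 0.21, adjusted p 4.36e-05), and Psme1 49.0 ± 10.6 in chronic and 20.6 ± 4.27 in control mice (1.26 ± 0.17, adjusted p 2.91e-05). Psme2 was at 0.89 ± 0.23 (adjusted p 0.00979), a call lost without control replicate 1 (0.67, adjusted p 0.0742) or chronic replicate 3 (0.60, adjusted p 0.0839) or with library totals alone (0.54, adjusted p 0.0646), with a range of 0.00013 to 0.0839 over 20 alternatives. Psmb10, at 0.53 ± 0.32 (adjusted p 0.329), was not called, and was called without chronic replicate 1 (0.84, adjusted p 0.0285; range 0.0285 to 0.749). Chronic libraries lay above control libraries without overlap for all 4 called immune subunits.

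Among the other members in the chronic phase, the median was 0.20, against -0.01 for all genes, and 33 of the 40 had a positive change. Psmd2 had 40.4, 52.8 and 66.8 CPM in chronic and 33.1, 35.2 and 36.7 in control mice, which do not overlap (log2 fold change 0.61 ± 0.16 SE, adjusted p 0.01). That call ended without control replicate 1 (0.57, adjusted p 0.0519) or chronic replicate 3 (0.42, adjusted p 0.0848) or with library totals alone (0.23, adjusted p 0.32), with a range of 0.000761 to 0.32. Without remission replicate 1, remission replicate 3, chronic replicate 1 or chronic replicate 2, 2 of the 40 were called. Psma6 was at 0.59 ± 0.22 (adjusted p 0.0783) and was called without chronic replicate 2 (0.76, adjusted p 0.029). At an unadjusted p under 0.05, edgeR's quasi-likelihood test had 10 of the 40 higher and 1 lower, and the share of all genes at that threshold was not counted. At an adjusted p under 0.05, DESeq2 and limma-voom each called 1 higher and 0 lower, and library totals alone gave 0 higher and 2 lower. Psme4 had 98.3, 68.6 and 78.3 CPM in chronic mice, Psme3 25.2, 20.9 and 29.8, and Psmf1 15, 15.7 and 16.1, each overlapping control and not called. Monocyte markers summed to 145 to 189 CPM in chronic and 34.3 to 93.0 in control libraries. Of the 14 tested, 1 was called higher and 1 lower. T and NK cell markers summed to 0.681 to 1.26 in chronic and 0.142 to 0.876 in control libraries. Of these 10 markers, 5 to 8 were at 0 counts in chronic and 8 to 9 in control libraries, and 0 of the 6 tested were called. Neutrophil markers summed to 9.95 CPM in chronic replicate 3, 1.36 in chronic replicate 1 and 0.18 in chronic replicate 2. They reached at most 0.647 in control libraries, and 0 of the 8 tested were called. Dendritic cell markers summed to 36.5 to 121 CPM in chronic and 21.1 to 28.6 in control libraries, without overlap. Of the 4 tested, 1 was called higher and 1 lower. Resting microglia markers were called lower for 5 of the 10. The part of these cells in the result was not tested.

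Chronic mice were lower than acute mice in 3 of the 5 immune subunits and in 17 of the 40 others, with medians of -0.56 and -0.46. Of all genes, 15.5% were called lower and 13.3% higher. All 14 tested monocyte, 8 neutrophil and 6 T and NK cell markers were lower too, and all 10 resting microglia markers were higher; their part was not tested. Without chronic replicate 2, 1 of the 5 immune subunits was called. Psmb8 was at -0.77 ± 0.20 on the log2 scale (adjusted p 0.00562), Psmb10 at -0.998 ± 0.31 (adjusted p 0.0264) and Psme1 at -0.56 ± 0.16 (adjusted p 0.0142). The call of Psmb10 ended without acute replicate 1 (adjusted p 0.0824), acute replicate 2 (0.0896) or chronic replicate 2 (0.0655), and that of Psme1 without chronic replicate 1 (0.0623) or chronic replicate 2 (0.0752) or with library totals alone (0.111). That of Psmb8 ended with the number in the sample titles as a covariate (-0.68, adjusted p 0.0505, range 0.000146 to 0.0505). The call of Psmb10 ended with this covariate as well (-1.15, adjusted p 0.053). Over 20 alternatives the adjusted p ran from 6.02e-06 to 0.0896 for Psmb10 and from 0.00198 to 0.111 for Psme1. Psmb9, at 47.7 ± 10.1 CPM in chronic and 46.8 ± 4.83 in acute mice, differed by 0.03 ± 0.18 (adjusted p 0.923), and Psme2 by -0.15 ± 0.22 (adjusted p 0.67). Among the others, Psma2 fell by 1.34 ± 0.25 (adjusted p 0.000372), Psmb1 by 0.93 ± 0.22 (adjusted p 0.00289), Psmb3 by 0.88 ± 0.21 (adjusted p 0.00296) and Psma6 by 0.87 ± 0.21 (adjusted p 0.00363). Psmb1 had 15, 13.7 and 20.9 CPM in chronic and 32.9, 38.1 and 22.8 in acute mice, and Psmb3 had 9.08, 9.90 and 10.5 in chronic and 16.3, 17.6 and 20.5 in acute mice, in both cases without overlap. Without chronic replicate 1, 6 of the 40 others were called, and without chronic replicate 2, acute replicate 2 or acute replicate 1 the counts were 8, 9 and 10. Psme4 was at -0.44 ± 0.15 (adjusted p 0.0348), a call that ended without any of 6 single libraries: control replicates 1 and 3, acute replicates 1 and 2, and chronic replicates 2 and 3 (adjusted p 0.0545 to 0.181; range over 20 alternatives 0.00792 to 0.357). Without chronic replicate 3, Psmd2 (adjusted p 0.0111) and Psme3 (0.0474) were called lower in chronic than in acute mice, which they were not with all libraries (0.0912 and 0.112).

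Between the 2 later phases, chronic mice were higher than remission mice in Psme1 (log2 fold change 0.85 ± 0.17 SE, adjusted p 0.0203), Psme2 (0.99 ± 0.23, adjusted p 0.0422) and Psmb9 (0.76 ± 0.18, adjusted p 0.0446), and in 1 of the 40 others, Psmd2 (0.73 ± 0.16, adjusted p 0.0272). Of all genes, 0.941% were called higher and 0.263% lower. Psmb8 was at 0.60 ± 0.20 (adjusted p 0.152) and Psmb10 at 0.80 ± 0.33 (adjusted p 0.251), and both were called without chronic replicate 1 (adjusted p 0.0366 and 0.0234). The median over the 40 others was 0.43, against -0.01 for all genes, and 38 of the 40 had a positive change. These calls depended on single libraries. With single libraries left out, between 0 and 5 immune subunits and between 0 and 4 others were called, with 0 immune subunits without remission replicate 3 or chronic replicate 3, 5 without chronic replicate 1, and 1 without control replicate 2, acute replicates 2 or 3, or remission replicate 1. Of the others, 0 were called without remission replicate 3 or chronic replicate 3, 2 without acute replicate 3, 3 without chronic replicate 1 and 4 without chronic replicate 2. The call of Psmb9 ended without any of 9 single libraries: each control library, acute replicates 2 and 3, remission replicates 1 and 3, and chronic replicates 2 and 3 (adjusted p 0.0509 to 0.186). That of Psme2 ended without any of 7: control replicate 2, acute replicates 2 and 3, each remission library, and chronic replicate 3 (adjusted p 0.0509 to 0.193). The call of Psme1 ended without remission replicate 3 (0.76, adjusted p 0.115) or chronic replicate 3 (0.66, adjusted p 0.0979). The call of Psmd2 ended without remission replicate 1 (adjusted p 0.0672), remission replicate 3 (0.115) or chronic replicate 3 (0.144).

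The immune subunits took a larger share of proteasome counts in each phase than in control mice. Of the summed CPM of the 48 members other than Psmc3ip and Psme2b, they held 9.90, 12.6 and 13.3% in control mice, 19.8, 21.5 and 22.2% at the acute phase, 16.9, 18.5 and 16.0% in remission and 18.4, 21.4 and 23.4% at the chronic phase. No library of any phase overlapped control. The 5 immune subunits summed to 80.7 ± 15.7 CPM in control mice, 266 ± 19.7 at the acute phase, 109 ± 10.4 in remission and 190 ± 51.5 at the chronic phase, and the 43 others to 592 ± 20.5, 991 ± 104, 529 ± 13.4 and 703 ± 90.7 CPM in the same order of stages. In remission the share was thus above control while the sum of the others was below it in every library (519 to 545 CPM in remission, 578 to 615 in control). No test was made of these sums, since the members were chosen with results known.

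**Figure D3:**
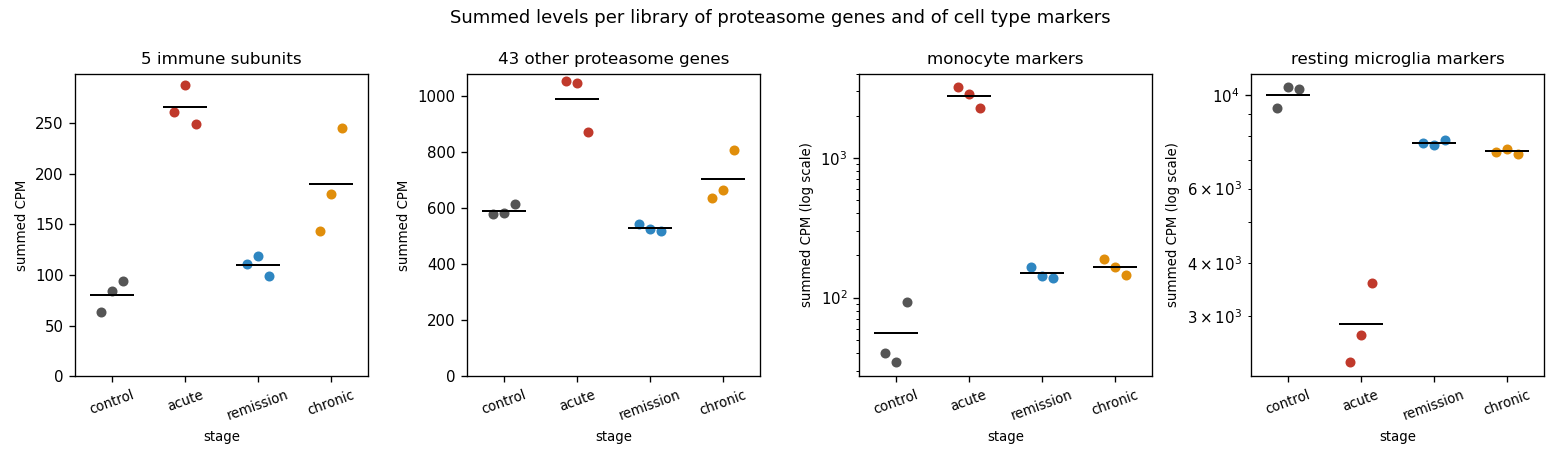
Summed CPM per library of the 5 immune subunits and of the 43 other proteasome genes (linear axes from 0), and of monocyte and resting microglia markers (log axes); points are mice and lines are means of 3 mice, by stage. Immune subunits sum to 249 to 288 CPM in acute and 63.4 to 94.3 in control libraries, and monocyte markers to 2276 to 3191 CPM in acute and at most 189 in all other libraries.

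Each immune catalytic subunit was then set against the subunit it replaces, as the log2 ratio of counts (plus 0.5) per kilobase of merged exons. Psmb9 to Psmb6 averaged -0.43 ± 0.25 in control mice, 0.43 ± 0.27 at the acute phase, 0.60 ± 0.49 in remission and 0.73 ± 0.33 at the chronic phase. All 9 libraries of the 3 phases lay above all control libraries, and the phases overlapped each other. As linear ratios per kilobase, the crEAE libraries were at 1.05 to 2.13 and the control libraries at 0.756, 0.616 and 0.869. Psmb8 to Psmb5 averaged 0.87 ± 0.40 in control mice, 1.81 ± 0.89 at the acute phase, 2.96 ± 0.81 in remission and 1.59 ± 0.16 at the chronic phase. Remission and chronic libraries lay above control libraries, and acute libraries overlapped them. Psmb10 to Psmb7 averaged 1.77 ± 0.52 in control mice, 2.64 ± 0.48 at the acute phase, 1.71 ± 0.92 in remission and 1.99 ± 0.29 at the chronic phase, and every phase overlapped control.

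An exact permutation test of the spread between the 4 stages, over all 15400 ways to split 12 libraries into 4 groups of 3, gave a p of 0.0277 for Psmb8 to Psmb5, 0.0177 for Psmb9 to Psmb6 and 0.288 for Psmb10 to Psmb7 (0.0415, 0.0415 and 0.288 after adjustment over the 3 pairs). The genes of these pairs, too, were chosen with earlier results of these data known, which the p-values do not take into account. Between 2 stages, 3 libraries against 3 cannot give an exact two-sided p below 0.1. That smallest value was reached for Psmb9 to Psmb6 in acute, remission and chronic against control mice, with differences of 0.87, 1.03 and 1.17, and for Psmb8 to Psmb5 in remission (2.09) and chronic (0.72) against control mice and in chronic against remission mice (-1.37). After adjustment over the 3 pairs these p-values were 0.15 or 0.3. For acute against control mice, Psmb8 to Psmb5 differed by 0.94 (exact p 0.3) and Psmb10 to Psmb7 by 0.87 (exact p 0.2). The remission ratio of Psmb8 to Psmb5 rests on 3, 8 and 2 counts of Psmb5 against 153, 131 and 92 of Psmb8, and the difference from control was 1.3 when it was taken on CPM with 2 added. Merged exons include retained introns. With the longest protein-coding transcript as the length, an alternative chosen after the values were seen, the control ratios of Psmb10 to Psmb7 were 0.999, 1.73 and 1.98 in place of 2.27, 3.91 and 4.50, and those of Psmb8 to Psmb5 were 2.89, 5.02 and 3.74 in place of 1.39, 2.42 and 1.80. Differences between stages do not depend on the length.

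**Figure D4:**
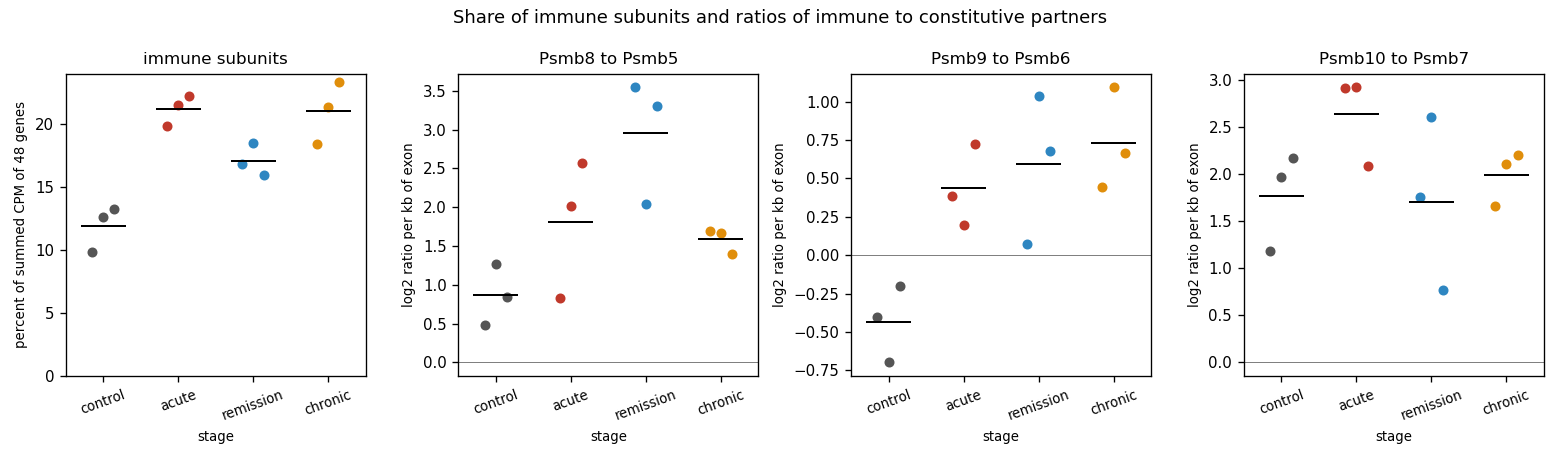
Share of the 5 immune subunits in the summed CPM of 48 proteasome genes (percent, axis from 0) and log2 ratios per kilobase of exon of each immune catalytic subunit to its constitutive partner; points are mice and lines are means of 3 mice, by stage. The share is 9.90 to 13.3% in control and 16.0 to 23.4% in all other libraries, Psmb9 to Psmb6 lies above control in all 9 crEAE libraries, and Psmb10 to Psmb7 overlaps control in every phase.

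Within the core, levels per kilobase varied between subunits. Alpha-ring genes ranged in acute mice from 5.80 CPM per kilobase (Psma3) to 23.8 (Psma6), and in control mice from 1.82 (Psma2) to 8.76 (Psma6). Of the immune catalytic genes, Psmb10 stood at 27.4 CPM per kilobase in acute and 9.62 in control mice, Psmb8 at 19.9 in acute and 4.06 in control mice, and Psmb9 at 12.8 in acute and 3.70 in control mice. The level of Psmb5 was 0.970 CPM per kilobase in remission and 2.13 in control mice, the lowest of the constitutive catalytic genes in both. Psme1 and Psme2 stood at 32.6 and 18.9 CPM per kilobase in acute mice, and at 9.33 and 9.28 in control mice. By this length, the PA28 genes were at like levels in control but not in acute mice. Such orders between genes depend on the length used, and no other length was tried for these levels. Merged exons held 1705 bases for Psmb10, 3381 for Psmb8, 3660 for Psmb9, 2209 for Psme1 and 1764 for Psme2.

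Partners and regulators outside the Psm name were counted from a list of 16 genes. In acute against control mice 5 were higher and 3 lower, with a median log2 fold change of 0.28, where 23.7% of all genes were higher and 20% lower. The counts in the list were near these shares. Pomp, which chaperones core assembly and is needed for immunoproteasomes, had 36.1, 39.2 and 38.8 CPM in acute and 20.3, 23.8 and 25.7 in control mice, without overlap (0.71 ± 0.17 SE, adjusted p 0.00198). That call ended with library totals alone (0.16, adjusted p 0.481; range over 20 alternatives 0.000616 to 0.481). Adrm1, a ubiquitin receptor of the cap, had 21.5, 21.8 and 19.9 CPM in acute and 18.9, 20.2 and 12.3 in control mice (0.29 ± 0.23, adjusted p 0.316). Nfe2l1, a transcription factor that raises proteasome genes when proteasome activity is short, had 57.3, 54.6 and 56.3 CPM in acute and 54.1, 51.0 and 49.0 in control mice. Its difference of 0.13 ± 0.13 (adjusted p 0.476) turned to -0.44 (adjusted p 0.0277; range over 20 alternatives 0.0277 to 0.823) when libraries were scaled by their totals alone. Remission and chronic mice each had 1 gene higher and 1 lower than control mice in this list, where 6.06% and 3.25% of all genes were called in remission and 9.57% and 5.17% in chronic mice. These were Rps27a, a ubiquitin fusion gene, at 0.83 in remission and 0.79 in chronic mice, and Akirin2, which in human cells brings proteasomes into the nucleus, at -0.82 in remission and -0.66 in chronic mice. Both are named after their values were seen. Akirin2 averaged 24.8 ± 2.6 CPM in control mice, 8.43 ± 0.83 at the acute phase, 14.1 ± 1.56 in remission and 15.6 ± 3.36 at the chronic phase, and was called lower than control in all 3 phases.

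Genes that load peptides onto MHC class I, or induce that pathway, were counted from a list of 12. Compared with control mice, 8 were higher and 1 lower in acute, 4 higher and 1 lower in remission, and 7 higher and 1 lower in chronic mice, with medians of 1.90, 0.27 and 0.70. Of all genes, 23.7% were higher and 20% lower in acute, 6.06% and 3.25% in remission, and 9.57% and 5.17% in chronic mice. The lower gene was Ifngr1, a chain of the interferon gamma receptor, in each phase. Tap1, a chain of the peptide transporter, had 35.7, 41.9 and 34.1 CPM in control mice, 379, 331 and 370 at the acute phase, 87.5, 99.3 and 97.0 in remission and 106, 153 and 209 at the chronic phase. None of the 4 groups overlapped another. Tap2, the other chain, stood at 26.8 ± 3.89 CPM in control mice, 114 ± 17.4 at the acute phase, 47.1 ± 2.94 in remission and 61.4 ± 15.1 at the chronic phase. Nlrc5, the transactivator of MHC class I and immunoproteasome genes, had 11.7 to 14.0 CPM in control mice, 304 to 341 at the acute phase, 90.3 to 125 in remission and 142 to 232 at the chronic phase. Against control it was at 4.62 ± 0.19, 3.04 ± 0.19 and 3.93 ± 0.19 in the 3 phases, each called. Irf1, a transcription factor induced by interferon, was at 2.80 ± 0.19 in acute and 1.70 ± 0.19 in chronic mice, both called, and at 0.50 ± 0.19 in remission (adjusted p 0.12), where it was called without chronic replicate 1 (adjusted p 0.0199; range over 20 alternatives 0.0138 to 0.373). The 3 phases share the control libraries.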

How the data were processed

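RNA was sequenced as single reads from Nextera XT libraries, which do not keep the strand, in 12 libraries of 4 groups of 3 mice run on 1 flow cell. Per the submitters' processing notes, the tools were HISAT2 (no version given), SAMtools 1.3.1, Picard 2.6.4 and HTSeq 0.6.1, with build GRCm38; the annotation release and counting settings are not given in the sources used here. The authors deposited counts of reads per gene, and the 12 single files equalled the series table. Of 48526 IDs, 48144 were in GENCODE M21, and the 382 others held 0.0208% of counts.

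The filter of edgeR 4.0.16 (R 4.3.3) left 12545 genes. One model of 4 groups with TMM factors was fitted with the robust quasi-likelihood test, 6 comparisons were made, and p-values were adjusted by Benjamini-Hochberg over all genes tested. The fit was tested on simulated counts, acute against control, with a spread that was set and not taken from these data. It recovered 4% of 1.5-fold, 40% of 2-fold, 86% of 4-fold and 92% of 8-fold changes, with 6 false calls among 12007 genes. Members not called can thus still differ, most easily by 2-fold or less. Larger differences can be missed too, since some 4-fold and 8-fold changes were not recovered. Ratios and exact permutation tests used scipy 1.17.1. Alternatives were DESeq2 1.42.0 and its size factors, limma 3.58.1 (voom), library totals alone, no filter and 2 groups only. Further ones were TMM without the top 6 features and the mitochondrially encoded genes, the number in the sample titles as a covariate, and each library left out. The members and lists were chosen with earlier results of these data known. Named were the 5 immune subunits and their partners and activators, up to 4 other members per direction and comparison with the smallest adjusted p, and 8 genes of the 2 pathway lists, of which 1 is not reported here. Precision is limited by the 2369 to 5126 counts per library on the members. The SDs given are taken over the mice of a group and the SEs belong to the edgeR fit, so neither covers counting error only.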

Additional observations from a re-analysis of the deposited data

Results flagged for a closer look

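Effects against control that differ between 2 phases were taken from the contrast between those phases. Groups of 3 libraries are too small for a check of single outlying libraries, so none was made.

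Between remission and acute mice, 16 named proteasome genes differed, all lower in remission. Of all genes, 19.4% were called lower and 17.6% higher in this comparison. Psma2, Psma5, Psma6, Psmb1, Psmb3 and Psmd2 were named because they were called with the smallest adjusted p in some comparison. The counts of named genes in this section were thus partly set by the choice. The log2 differences were -1.37 for Psmb8, -0.73 for Psmb9, -1.80 for Psmb10, -1.41 for Psme1 and -1.14 for Psme2. Among the other members they were -2.67 for Psmb5, -0.91 for Psmb6, -0.81 for Psmb7, -0.91 for Psme3, -0.66 for Psme4, -2.04 for Psma2, -2.18 for Psma5, -1.75 for Psma6, -1.37 for Psmb1, -1.31 for Psmb3 and -1.08 for Psmd2.

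Between chronic and acute mice, 9 differed, all lower in chronic: Psmb8 by -0.77, Psmb10 by -0.998, Psme1 by -0.56, Psme4 by -0.44, Psma2 by -1.34, Psma5 by -1.03, Psma6 by -0.87, Psmb1 by -0.93 and Psmb3 by -0.88. Psmb9 was not among them. Of all genes, 15.5% were called lower and 13.3% higher in this comparison. With the number in the sample titles as a covariate, the calls of Psmb8, Psmb10, Psme4 and Psma5 ended (adjusted p 0.0505, 0.053, 0.169 and 0.0695).

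Between chronic and remission mice, 4 differed, all higher in chronic: Psmb9 by 0.76, Psme1 by 0.85, Psme2 by 0.99 and Psmd2 by 0.73. Each of these 4 calls ended without remission replicate 3 and without chronic replicate 3. Of all genes, 0.941% were called higher and 0.263% lower in this comparison.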

How the results depend on the processing

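The 5 immune calls in acute against control and in remission against acute mice held with any library left out. With library totals alone, immune subunits lower in remission than in acute mice numbered 4, against 5, with Psmb9 lost (adjusted p 0.109), those higher in chronic than in control mice 3, against 4, with Psme2 lost (0.0646), and those lower in chronic than in acute mice 2, against 3, with Psme1 lost (0.111); other members called higher in acute against control mice numbered 8, against 26, and 1 was called lower; in remission 3 were lower than in control mice, and 1 was higher than in acute mice; in chronic mice 0 were higher and 2 lower than in control, 6 lower than in acute and 0 higher than in remission mice. With that scaling, Psme3 (-0.082) and Nfe2l1 (-0.44) turned negative in acute against control mice. Other members higher in chronic against control mice numbered 1, against 3 without a filter or with the title number, and 2 in fits of 2 groups only. Other members lower in chronic against acute mice numbered 17, against 4 with the title number and 11 in fits of 2 groups, and immune subunits 3, against 1 with the title number. Every chronic library has title number 1, as has acute replicate 3, while acute replicates 1 and 2 have number 2. The title number thus partly overlaps this comparison, and their parts cannot be fully told apart. In fits of 2 groups, 1 other member was lower in remission than in control mice. For chronic against remission mice, immune subunits called higher numbered 3, against 1 with limma-voom or the title number, 0 in fits of 2 groups and 5 without a filter; other members numbered 1, against 2 without the top features or with the title number, 4 with DESeq2, 0 with limma-voom or 2 groups, and 6 without a filter. The causes were not tested. Shares of all genes called were counted for the main fit only. With single libraries left out, immune subunits called ranged from 1 to 2 (remission above control), 1 to 3 (chronic below acute) and 0 to 5 (chronic above remission), and other members from 0 to 2 (chronic above control), 6 to 20 (chronic below acute) and 0 to 4 (chronic above remission). The remission minus control difference of the log2 ratio Psmb8 to Psmb5 was 1.3 on CPM with 2 added, against 2.09. The other ratio differences against control moved by less than 1 SD, pooled over the 2 groups compared, but with single libraries left out several moved by over 1.5 times or changed sign: Psmb8 to Psmb5 ran from 0.55 (without acute replicate 3) to 1.43 (without acute replicate 1) in acute minus control mice (0.94 with all libraries), and Psmb10 to Psmb7 from 0.58 (without control replicate 1) to 1.15 in acute (0.87), -0.51 to 0.41 in remission (-0.06) and -0.08 to 0.42 in chronic minus control mice (0.22). No paired analysis was possible because the labels' numbers do not pair mice across groups. Depth limits Psmb5 and the genes that did not pass the filter. The 3 constitutive partners in the ratios are also the only members with named pseudogenes: 1 for Psmb5, 2 for Psmb6 and 1 for Psmb7. Psmb5 shares 12.1% of its exon bases with Mir686 and Psmb7 11.8% with Nek6. Whether such copies or shared bases changed their counts and the ratios was not tested.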
